A study of Mus musculus with 8 samples.

Results

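The nuclear genes for the subunits of the respiratory chain were followed in 4 mouse fibrosarcoma lines. Members were the protein-coding rows of the deposited count table whose symbols name a subunit of complexes I to V: Nduf subunits other than the Ndufaf assembly factors, Sdha to Sdhd, the Uqcr genes and Cyc1, the Cox4 to Cox8 genes, and the Atp5 genes. The rule found 77 members among 18768 genes, namely 35 of complex I, 4 of complex II, 9 of complex III, 13 of complex IV and 16 of complex V. Cox4i2, Cox7b2, Cox8b and Cox8c and members on chromosome X were not analysed here.

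Each line came from 1 tumor that methylcholanthrene, a chemical carcinogen, had raised in a mouse, and was grown in RPMI medium with serum and antibiotics for many passages before RNA was taken. MC010 and MC011 carried the label IRF8 KO, being derived from mice lacking the transcription factor IRF8, and MC654 and MC659 carried the label WT, from C57BL/6 mice. All groups shared the carcinogen and the culture, and the strain and age of the mice used for the KO lines were not given in the sources used here. With 2 libraries per line, 4 libraries stood against 4, but only 2 tumors against 2. The labels name no batch. The p-values given here measure the spread between libraries, and a difference between labels cannot be told apart from a difference between single tumors.

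The respiratory chain sits in the inner mitochondrial membrane. Complex I takes electrons from NADH and complex II from succinate, ubiquinone carries them to complex III, cytochrome c carries them on to complex IV, and complex IV passes them to oxygen. Complexes I, III and IV pump protons, and complex V, the ATP synthase, uses the proton gradient to make ATP. Most subunits are encoded in the nucleus, the rest in mitochondrial DNA, and the nuclear genes are known targets of shared regulators such as NRF1, the ETS factor GABP and the PGC-1 coactivators. Several complex IV subunits and a complex I relative exist as pairs of genes, one used widely and one in muscle, testis or low oxygen.

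The libraries held 74063616 to 116206078 counts. The members took 0.902% to 0.924% of the counts in the libraries of MC011, MC654 and MC659 and 0.800% to 0.812% in those of MC010. Irf8 itself went against the labels, with 442 and 347 counts in MC010, 32 and 10 in MC011, 1 and 2 in MC654, and 1 and 0 in MC659. By PCR genotyping, the paper reported MC654 and MC659 as WT and MC010 and MC011 as KO. Directions are therefore given by label. The 8 fibroblast markers summed to between 9509 and 10451 CPM (counts divided by TMM-adjusted library sizes) in the libraries labelled IRF8 KO and to between 14401 and 16146 in those labelled WT. On the log2 scale, IRF8 KO label minus WT and by the edgeR test described with the first comparison, Fn1 was called lower at -2.33. Thy1 and S100a4 were called higher at 1.93 and 2.17, and Vim, the mesenchymal intermediate filament, passed the adjusted p at 0.39. Thy1 had 12.8 and 11.9 CPM in MC010, near the 8.68 to 12.7 of WT, and 72.3 and 68.1 in MC011. S100a4 lay above WT in both lines labelled IRF8 KO. Col1a1, Col1a2, Col3a1 and Pdgfrb did not pass the adjusted p by label. MC010 lay below MC011 in Col1a1 (log2 difference -2.33), Col3a1 and Pdgfrb and above it in Col1a2 (1.66). Of 10 hematopoietic markers 4 were in the table, at 5.72 to 7.38 CPM in sum against 9.67 to 11.4. The macrophage genes Cd68 at -0.58 and Csf1r at -1.93 both passed the adjusted p, while Ptprc, the pan-leukocyte marker, reached at most 0.177 CPM. The striated muscle list summed to at most 6.45 CPM and the endothelial list to at most 0.912 CPM. The 5 epithelial markers, however, summed to between 39.2 and 567 CPM in the libraries labelled IRF8 KO and to between 115 and 129 in those labelled WT. Krt8 was at 293 and 274 CPM in MC010 and at 1.31 and 1.28 in MC011. The list went both ways between these lines. Krt8 and Krt18 were called higher in MC010 than in MC011, and the other 3, Epcam, Cdh1 and Krt19, were called lower. The part of these genes in the members' differences was not tested. In bulk RNA, fewer cells of a kind and less RNA per cell cannot be told apart.

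All 77 members passed the filter on low counts, and 70 had a mean of at least 10 CPM. Levels of different genes were compared per kilobase of annotated exon. This length joins the exons of all annotated transcripts of a gene and can exceed that of the transcript expressed. On that scale the highest members were from the ATP synthase head. The catalytic beta subunit Atp5b stood at 353 and the alpha subunit Atp5a1 at 343 CPM per kilobase. They were followed by 4 small or regulatory complex IV subunits, Cox8a at 187, Cox4i1 at 176, Cox6b1 at 168 and Cox6a1 at 126 CPM per kilobase. The median member stood at 32.0 CPM per kilobase in complex I, 55.3 in complex II, 68.9 in complex III, 71.6 in complex IV and 62.6 in complex V. The lowest were the tissue-restricted isoforms Cox6b2 at 0.110, Cox7a1 at 0.271, Ndufa4l2 at 0.543 and Cox6a2 at 1.16 CPM per kilobase, with Ndufb2 at 1.01 among them. Ndufb2 had a mean of 5.71 CPM over 5628 bases of annotated exon, and Cox6a2 0.786 CPM over 680 bases.

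Summed over members, complex I RNA lay between 1895 and 1987 CPM in all 8 libraries, so lines and labels overlapped. Complex IV summed to 1198 and 1149 CPM in MC010, 1076 and 1047 in MC011, 1163 and 1102 in MC654, and 1129 and 1127 in MC659, with MC011 below all other libraries and the labels overlapping. In the other 3 complexes MC010 was lowest. Complex V summed to 3703 and 3644 CPM in MC010, 4224 and 4255 in MC011, 4565 and 4439 in MC654, and 4426 and 4447 in MC659, with MC010 lowest and MC011 below both lines labelled WT. Complex III summed to 829.6 and 811 CPM in MC010, 936 and 931 in MC011, 1026 and 983 in MC654, and 988 and 1008 in MC659, the same order of labels. Complex II summed to 557 and 555 CPM in MC010, 699 and 703 in MC011, 627 and 612 in MC654, and 638 and 639 in MC659, so that the lines labelled IRF8 KO stood on either side of WT. These sums follow the most abundant members and were not tested.

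**Figure D1:**
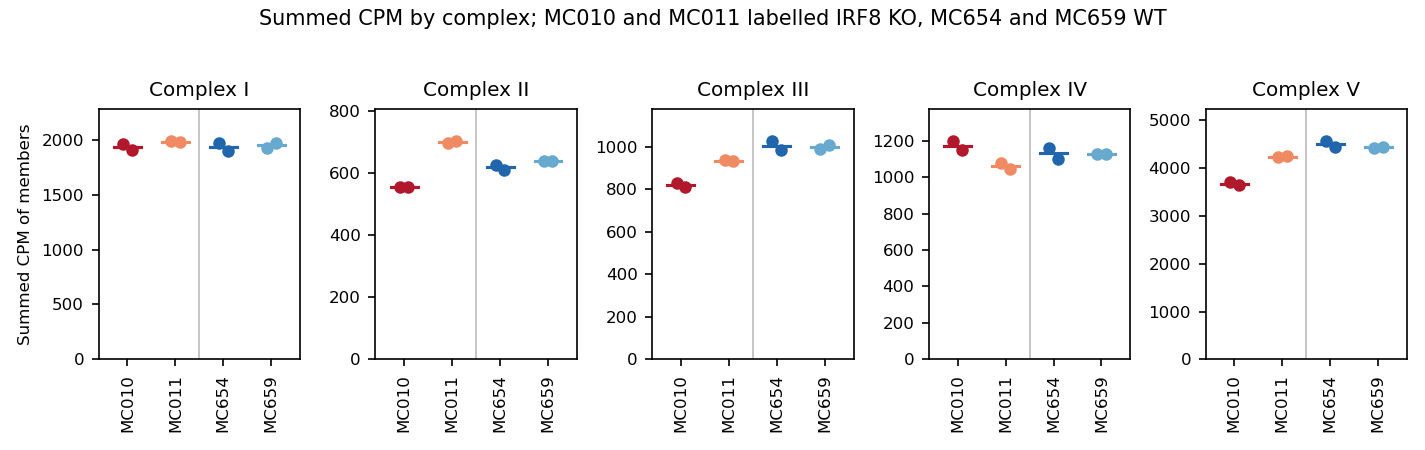
Summed CPM of the members of each complex (vertical axes from 0, CPM) in each library (points) of the 4 lines (horizontal axes), with the line mean as a bar. Complex I stays between 1895 and 1987 CPM in all libraries, while complexes II, III and V are lowest in MC010.

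The first comparison asked which members differed between the labels. Members were called at an adjusted p under 0.05 and a log2 fold change over 0.59 in size, by the quasi-likelihood test of edgeR, with p-values adjusted by the Benjamini-Hochberg method over all 15153 genes tested. No member was called higher in the libraries labelled IRF8 KO, against 13.7% of all genes tested, and 2 members, Uqcrc2 and Cox6a2, were called lower, against 8.72%. At an unadjusted p under 0.05 there were 35 members, beside 7109 of the 15153 genes tested. DESeq2 called the same numbers of members, 0 higher and 2 lower. Among genes of at least 10 CPM, where 10.2% were called higher and 6.82% lower, 0 of 70 members were called higher and 1 lower. By the adjusted p alone, 6 members were higher, against 20.8% of all genes, and 15 lower, against 16.7%. With single libraries left out these were 4 to 8 higher and 9 to 18 lower, the 9 being without MC654 replicate 1 or MC659 replicate 1.

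Differences by label were small. The median log2 fold change of the members was 0.03, beside 0.02 over all genes tested, and the median size of the change was 0.16, beside 0.36. Of the 77 members, 54 (70.1%) changed by less than 0.25 in either direction, beside 38.1% of all genes. Genes of at least 10 CPM had a median size of 0.26 and 48.6% of them lay within 0.25, beside 0.16 and 75.7% for the 70 members above that level. For 12 members all libraries labelled IRF8 KO lay above all those labelled WT, against 22.1% of all genes, and for 18 members they lay below, against 20.5%. With 4 libraries against 4, a two-sided exact permutation test cannot go below p = 0.0286, the value each of these 30 members has.

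**Figure D2:**
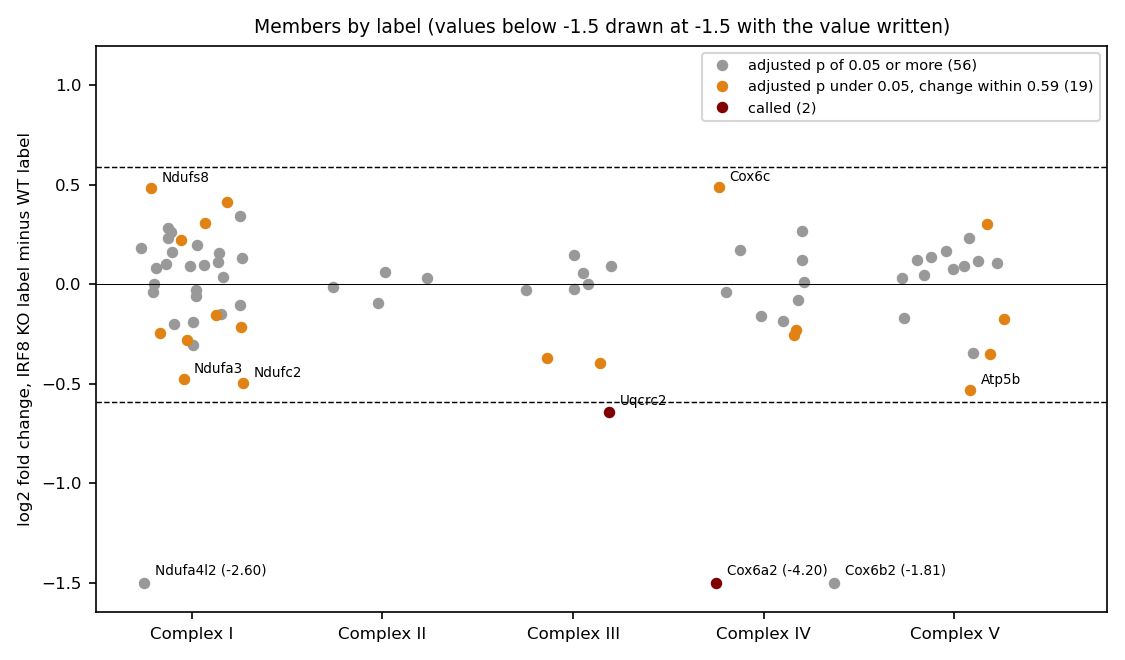
log2 fold change of each member, IRF8 KO label minus WT label (vertical axis), by complex (points spread sideways for legibility). Dashed lines mark 0.59 in each direction; 56 members have an adjusted p of 0.05 or more, 19 pass it within the dashed lines, and Uqcrc2 (-0.64) and Cox6a2 (-4.20) are called.

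The highly expressed member with the largest difference by label was Uqcrc2 (ENSMUSG00000030884; mm10 chromosome 7, 120635176 to 120659524), a core protein of complex III. It had 107 and 116 CPM in MC010, 124 and 131 in MC011, 177 and 181 in MC654, and 194 and 197 in MC659. Every library labelled IRF8 KO was below every library labelled WT, and the mean was 119.9 ± 10.4 CPM against 187 ± 9.57 (SD, n = 4 libraries). The log2 fold change was -0.64 (SE 0.07, edgeR adjusted p = 0.000427). An exon of Uqcrc2 overlaps Pdzd9 on the other strand, and the strand setting of the counting was not stated. In all, 22 of the 77 members have such an overlap, and it is named below for only some. Atp5d, Atp5f1, Atp5l, Cox4i1, Cox5a, Ndufa3, Ndufa11, Ndufb5, Ndufb6, Ndufs1, Ndufs3 and Uqcrb have one that is not named there. Leaving out a whole line took Uqcrc2 just short of the call threshold, at -0.57 without MC010 and -0.59 without MC659, with the adjusted p still under 0.05.

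The partner core protein, Uqcrc1, moved the same way by less. It had 176 and 166 CPM in MC010, 203 and 202 in MC011, 249 and 233 in MC654, and 236 and 249 in MC659, a log2 fold change of -0.37 (SE 0.08, edgeR adjusted p = 0.0062) with no overlap between labels. Uqcrq, a small subunit of the same complex, was the third member of complex III past the adjusted p, at -0.40 (SE 0.13, edgeR adjusted p = 0.0407). The redox-active subunits of complex III gave log2 fold changes near 0. Cyc1, the cytochrome c1, was at -0.03 (SE 0.09) and Uqcrfs1, the Rieske iron-sulfur protein, at -0.02 (SE 0.13), neither past the test, and both overlapped between labels.

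Atp5b (ENSMUSG00000025393; chromosome 10, 128083273 to 128090391), the catalytic beta subunit of the ATP synthase and the most abundant member, separated the labels most cleanly. It had 1232 and 1217 CPM in MC010, 1217 and 1226 in MC011, 1788 and 1741 in MC654, and 1784 and 1771 in MC659. Lines of one label differed by at most 0.01 on the log2 scale, and the labels differed by -0.53 (SE 0.04, edgeR adjusted p = 7.59e-05), 1223 ± 7.48 against 1771 ± 21.0 CPM (SD, n = 4 libraries). This is short of the 0.59 that a call required. Atp5d, the delta subunit of the central stalk, was lower by label at -0.35 (SE 0.09, edgeR adjusted p = 0.0138), and its libraries did not overlap either.

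The membrane ring of the ATP synthase is made of 1 protein, subunit c, that 3 genes encode. Atp5g2 was higher by label at 0.30 (SE 0.08, edgeR adjusted p = 0.0168) and Atp5g3, which had the highest level of the 3 per kilobase, was lower at -0.18 (SE 0.06, edgeR adjusted p = 0.039). Atp5g3 kept the adjusted p in only 1 of 8 fits with a library left out and Atp5g2 in 6. Atp5g1 had a log2 fold change of 0.23 (SE 0.09, edgeR adjusted p = 0.0676). Of the 50-base stretches of Atp5g2 transcripts, 36.7% also occur in transcripts of other genes, so its reads may have been shared out or dropped in counting. Atp5g1 ranged from 107 to 120.4 CPM in the libraries labelled IRF8 KO and from 86.3 to 111 in those labelled WT, the latter split into MC654 at 111 and 96.4 and MC659 at 86.3 and 88.3.

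In complex I, 4 members were higher by label and 6 lower by the adjusted p. The iron-sulfur subunit Ndufs8 had 64.2 and 59.9 CPM in MC010, 68.1 and 66.7 in MC011, 48.7 and 45.3 in MC654, and 45.6 and 46.0 in MC659, a log2 fold change of 0.48 (SE 0.06, edgeR adjusted p = 0.000568). Ndufv1, which binds the flavin that accepts electrons from NADH, was higher at 0.31 (SE 0.06, edgeR adjusted p = 0.00487), with libraries at 135 to 149 CPM against 108 to 124. Both sat above WT in all 4 libraries labelled IRF8 KO. Ndufb5, a subunit of the membrane arm, was the smallest of the rises at 0.22 (SE 0.07, edgeR adjusted p = 0.0319).

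The subunits that were lower in complex I included a core one. Ndufs1, the largest iron-sulfur subunit, had 128 and 134 CPM in MC010, 134 and 139 in MC011, 151 and 155 in MC654, and 159 and 154 in MC659, at -0.21 (SE 0.05, edgeR adjusted p = 0.00791). The accessory membrane-arm subunits Ndufc2 and Ndufa3 had the largest falls, at -0.50 (SE 0.06, edgeR adjusted p = 0.0006) and -0.48 (SE 0.05, edgeR adjusted p = 0.000413). Ndufb3 and Ndufb6 were lower by 0.28 and 0.24. In all 6 the libraries labelled IRF8 KO lay below WT, so core and accessory subunits of one complex differed in both directions.

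Ndufa4 is named for complex I but is now placed in complex IV. It had 136 and 134 CPM in MC010, 119 and 119.6 in MC011, 96.6 and 97.7 in MC654, and 94.3 and 93.7 in MC659, and it was higher by label at 0.41 (SE 0.06, edgeR adjusted p = 0.00131). Cox6c, a small complex IV subunit, had 116 and 115 CPM in MC010, 106 and 112 in MC011, 83.6 and 79.2 in MC654, and 79.2 and 78.0 in MC659, the largest rise of any member at 0.49 (SE 0.05, edgeR adjusted p = 0.000258). An exon of Cox6c overlaps Vps13b on the other strand. Both genes separated the labels in every library.

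The other subunits of complex IV that passed were lower. Cox6b1 and Cox6a1, the widely used forms of their pairs, fell by 0.23 (edgeR adjusted p = 0.0309) and 0.25 (edgeR adjusted p = 0.044) on the log2 scale, and the labels overlapped for Cox6a1. With a library left out, Cox6b1 kept the adjusted p in 2 of 8 fits and Cox6a1 in 1. Cox4i1, the widely used form of subunit 4, was the steadiest member of complex IV, between 263 and 286 CPM in all libraries with a log2 fold change of -0.04 (SE 0.05). Cox5a and Cox5b were at -0.08 (SE 0.06) and -0.18 (SE 0.07), Cox7a2 at 0.12 (SE 0.06) and Cox8a at 0.17 (SE 0.13), none past the adjusted p.

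None of the 4 subunits of complex II passed the test by label. The membrane anchors Sdhc and Sdhd were at 0.06 (SE 0.05) and -0.09 (SE 0.04), the iron-sulfur subunit Sdhb at -0.01 (SE 0.05) and the flavoprotein Sdha at 0.03 (SE 0.18), where Sdha's wide error comes with lines that stood apart within one label. Sdhb was the least variable member of all, its line means spanning 0.07 on the log2 scale. In the other complexes the steadiest members spanned 0.10 (Ndufa12), 0.11 (Uqcrb), 0.08 (Cox4i1) and 0.14 (Atp5l).

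Not all members that separated the labels passed the adjusted p. Above WT in every library labelled IRF8 KO, but short of the test, were 6 members: Ndufa5, Ndufa6, Ndufa7 and Ndufb9 of complex I, and Atp5c1 and Atp5e of the central stalk of the ATP synthase. Their log2 fold changes ran from 0.12 (Atp5c1, SE 0.05) to 0.28 (Ndufb9, SE 0.10). Below WT and short of the test were 4 members, Ndufa10, Sdhd, Atp5o, which belongs to the peripheral stalk, and Atp5s, a coupling factor. Atp5o had 151 and 149 CPM in MC010, 172 and 175 in MC011, 182 and 180.3 in MC654, and 180.4 and 186 in MC659, a log2 fold change of -0.17 (SE 0.07, edgeR adjusted p = 0.0754). The remaining subunits of the peripheral stalk and the membrane part gave values between 0.05 (Atp5f1, SE 0.06) and 0.17 (Atp5k, SE 0.09), with labels that overlapped.

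Of the 21 members past the adjusted p by label, 13 passed it with any single library left out. Atp5g2 lost it in edgeR without MC654 replicate 2 (adjusted p = 0.0551) or MC659 replicate 1 (0.0549), and Ndufb3 without any one library labelled WT (0.0529 to 0.0582). Ndufb5 and Cox6b1 kept it only without either library of MC011, and reached edgeR adjusted p-values of 0.086 and 0.0713. Uqcrq kept it only without MC010 replicate 2 or MC011 replicate 1 and reached 0.096. Cox6a1 kept it only without MC011 replicate 1 and Atp5g3 only without MC659 replicate 2, and they reached 0.107 and 0.0941.

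The tests by label rested on both libraries of each line. In a fit on counts summed per line, 2 lines against 2, no gene of the 15153 was called and 3361 had an unadjusted p under 0.05, 11 of them members. With the line as a random block in limma-voom, Uqcrc2 and Cox6a2 were still called and by the adjusted p alone 3 members passed higher, Cox6c, Ndufs8 and Ndufa4, and 5 lower, those called with Atp5b, Ndufa3 and Ndufc2.

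The second comparison set the lines against each other. MC010 and MC011, both labelled IRF8 KO, differed in 7 members at the call threshold. MC010 was higher than MC011 in 1 member, Cox7a2l, against 15.7% of all genes, and lower in 6, Ndufa4l2, Ndufb2, Ndufs6, Sdha, Cox7a1 and Atp5a1, against 16% of all genes. By the adjusted p alone, 17 members were higher, against 31.2% of all genes, and 26 lower, against 31.8%. In 11 members, all libraries labelled WT lay between those of MC010 and those of MC011, with MC010 above in 3 and below in 8. The share of all genes that met this condition alone was not counted. Of the 11 members, 5 were also called between MC010 and MC011, where 8.8% of all genes met both conditions. These 5 are named here after their values were seen.

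Cox7a2l (ENSMUSG00000024248; chromosome 17, 83501919 to 83514333), which helps to join complexes III and IV into supercomplexes, had 143 and 144 CPM in MC010, 65.9 and 71.7 in MC011, 104 and 101 in MC654, and 108 and 108 in MC659. MC010 lay above WT and MC011 below it, with a log2 difference of 1.06 (SE 0.05, edgeR adjusted p = 5.43e-11). By label the log2 fold change was therefore 0.01 (SE 0.27). Of its 50-base stretches, 13.8% occur in transcripts of other genes.

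Sdha (ENSMUSG00000021577; chromosome 13, 74322254 to 74350280), the succinate-oxidizing subunit of complex II and an enzyme of the TCA cycle, showed the reverse order. It had 216 and 219 CPM in MC010, 351 and 352 in MC011, 269 and 263 in MC654, and 291 and 289 in MC659, with MC010 lower than MC011 by 0.69 (SE 0.04, edgeR adjusted p = 8.07e-10). The other 3 subunits of complex II were not called between these lines: their log2 differences were -0.07 for Sdhb, -0.13 for Sdhc and 0.02 for Sdhd.

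Atp5a1 (ENSMUSG00000025428; chromosome 18, 77773729 to 77782869), the alpha subunit that alternates with Atp5b in the head of the ATP synthase, had 815 and 803 CPM in MC010, 1356 and 1376 in MC011, 1093 and 1067 in MC654, and 1039 and 1061 in MC659. MC010 was lower than MC011 by 0.76 (SE 0.04, edgeR adjusted p = 2.08e-10), and an exon overlaps Haus1 on the other strand. Atp5b did not share this pattern, its 2 lines labelled IRF8 KO differing by 0.00 (SE 0.04). The ratio of Atp5a1 to Atp5b counts was 0.661 and 0.660 in MC010, 1.11 and 1.12 in MC011, 0.612 and 0.613 in MC654, and 0.583 and 0.599 in MC659, so MC011 was the only line in which Atp5a1 had more counts than Atp5b. Together the pair made 24.8% and 25.1% of the members' CPM in MC010 and 28.8% to 31.1% in the other lines. Without the pair, the members summed to 6204 and 6043 CPM in MC010 and to between 6222 and 6475 CPM elsewhere.

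Both remaining members of the 5 belong to complex I. Ndufs6, an iron-sulfur-associated subunit that binds zinc, had 29.3 and 29.4 CPM in MC010, 47.6 and 46.0 in MC011, 36.1 and 33.0 in MC654, and 33.9 and 35.8 in MC659, a log2 difference of -0.67 (SE 0.06, edgeR adjusted p = 1.47e-07). Ndufb2, a membrane-arm subunit, had 4.24 and 4.26 CPM in MC010, 8.20 and 8.18 in MC011, 4.60 and 5.64 in MC654, and 5.11 and 5.42 in MC659, at -0.95 (SE 0.12, edgeR adjusted p = 6.48e-06). Exons of Ndufs6 overlap Mrpl36 and those of Ndufb2 overlap Braf, in each case on the other strand. The further 6 members on opposite sides were Ndufb10, Ndufs3, Ndufv3, Uqcr10, Uqcrfs1 and Atp5f1. Among them Uqcrfs1 differed most, at 71.6 and 73.3 CPM in MC010 and 98.6 and 105 in MC011, a log2 difference of -0.49 (SE 0.05, edgeR adjusted p = 4.29e-07).

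**Figure D3:**
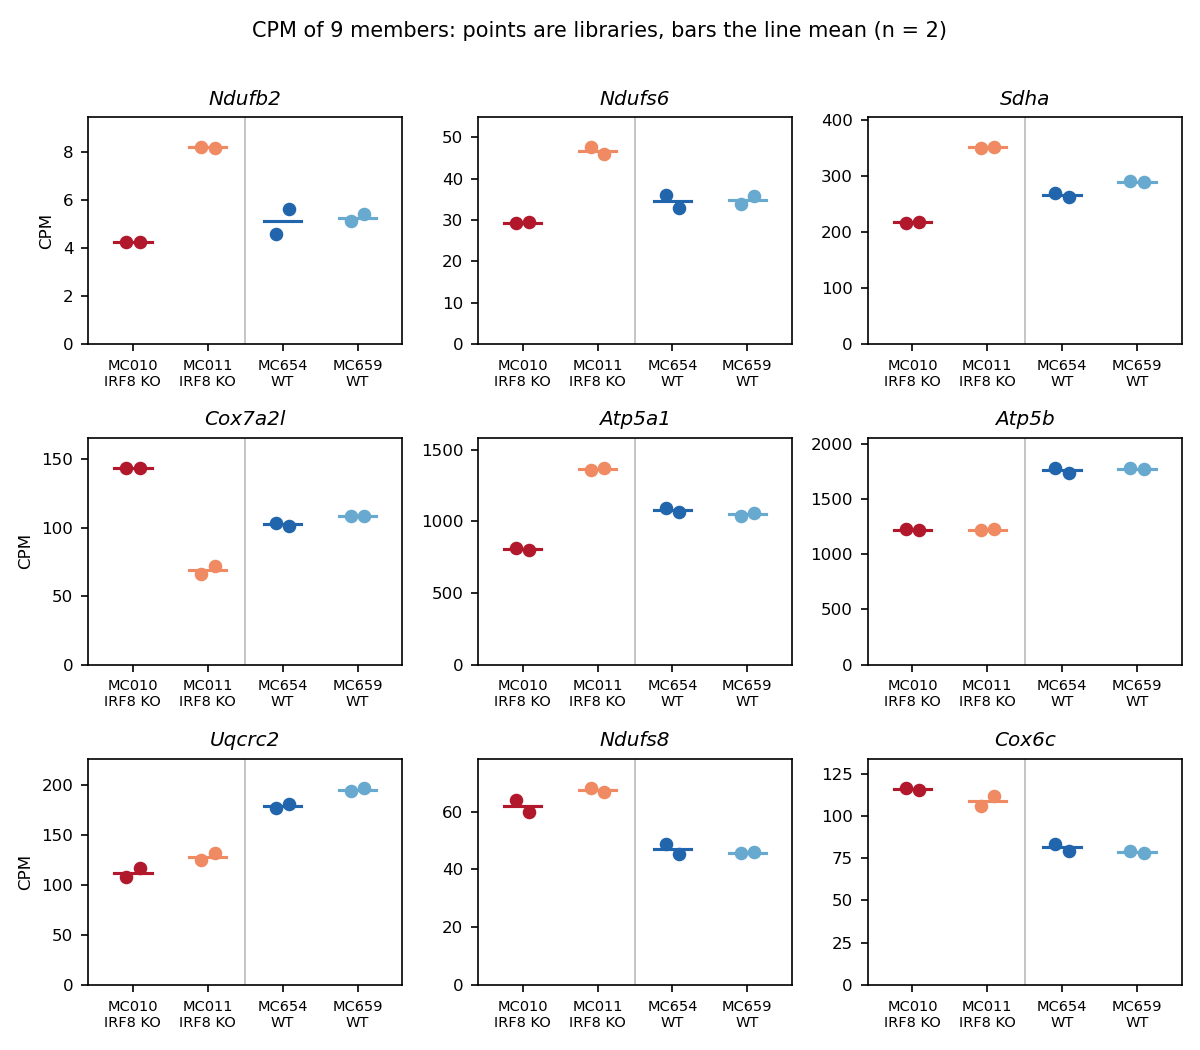
CPM (vertical axes from 0) of 9 members in each library (points) of the 4 lines (horizontal axes), with line means as bars. Ndufb2, Ndufs6, Sdha and Atp5a1 are lowest in MC010 and highest in MC011, Cox7a2l is the reverse, and Atp5b, Uqcrc2, Ndufs8 and Cox6c separate the labels.

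The promoters of 3 of these members are shown because Sdha and Ndufs6 differed between MC010 and MC011 in one direction and Cox7a2l in the other, followed by Uqcrc1 and Atp5b, which were lower by label. Each runs from 250 bases before to 50 bases after the RefSeq start in GRCm38.p6. Capitals mark NRF1 motifs, searched on both strands as the core GCGCATGC and as GCGCA, any base, then GCGC, the latter added after the promoters were seen. The coordinates are chr13:74350191-74350490 (minus strand) for Sdha, chr13:73328433-73328732 (minus) for Ndufs6, chr17:83514284-83514583 (minus) for Cox7a2l, chr9:108936398-108936697 (plus) for Uqcrc1 and chr10:128083057-128083356 (plus) for Atp5b.
Sdha: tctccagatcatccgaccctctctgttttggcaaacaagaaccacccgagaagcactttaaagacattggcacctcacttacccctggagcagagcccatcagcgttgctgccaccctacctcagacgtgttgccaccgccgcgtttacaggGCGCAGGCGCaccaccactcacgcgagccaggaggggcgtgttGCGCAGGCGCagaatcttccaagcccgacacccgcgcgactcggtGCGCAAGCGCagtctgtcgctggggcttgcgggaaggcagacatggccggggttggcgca
Ndufs6: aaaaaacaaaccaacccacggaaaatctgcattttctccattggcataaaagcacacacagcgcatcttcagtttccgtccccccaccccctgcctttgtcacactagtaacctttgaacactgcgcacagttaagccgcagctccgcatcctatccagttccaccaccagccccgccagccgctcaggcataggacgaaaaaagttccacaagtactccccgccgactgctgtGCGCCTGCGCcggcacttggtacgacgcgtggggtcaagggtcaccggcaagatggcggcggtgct
Cox7a2l: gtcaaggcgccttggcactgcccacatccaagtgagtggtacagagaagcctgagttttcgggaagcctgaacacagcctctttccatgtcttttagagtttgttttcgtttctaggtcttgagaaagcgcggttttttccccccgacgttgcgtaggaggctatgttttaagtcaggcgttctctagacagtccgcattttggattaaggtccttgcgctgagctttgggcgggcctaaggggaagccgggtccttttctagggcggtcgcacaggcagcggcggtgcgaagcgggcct
Uqcrc1: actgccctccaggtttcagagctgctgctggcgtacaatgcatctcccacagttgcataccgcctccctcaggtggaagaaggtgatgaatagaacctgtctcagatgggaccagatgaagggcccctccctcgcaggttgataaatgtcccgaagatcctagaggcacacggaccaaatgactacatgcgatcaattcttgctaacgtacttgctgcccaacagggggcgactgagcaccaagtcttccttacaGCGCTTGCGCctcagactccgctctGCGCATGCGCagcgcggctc
Atp5b: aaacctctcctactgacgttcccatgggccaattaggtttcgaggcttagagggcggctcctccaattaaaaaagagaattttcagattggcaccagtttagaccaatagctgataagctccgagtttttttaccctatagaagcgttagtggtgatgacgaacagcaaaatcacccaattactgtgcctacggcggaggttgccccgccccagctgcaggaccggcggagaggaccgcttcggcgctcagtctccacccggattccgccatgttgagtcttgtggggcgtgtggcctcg

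The Sdha promoter held 3 matches to the motif with a free middle base and Ndufs6 held 1, while Uqcrc1 held matches to both forms and Cox7a2l and Atp5b held none. A RefSeq promoter was matched for 63 of the 77 members. The NRF1 core occurred in 10 of them (15.9%), beside 824 of 27025 genes (3.05%), and the form with a free middle base in 17 (27%), beside 1402 genes (5.19%). The 2 forms can overlap, and 7 members held both. An ETS core, CCGGAAGT, occurred in 5 (7.94%), beside 1164 genes (4.31%). These are letter matches and say nothing of binding, and members with and without a match differed in both directions.

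MC010 and MC011 were each compared with both lines labelled WT. By edgeR, MC010 against MC654 had 0 members called higher (19.6% of all genes; 22 members were higher at an unadjusted p under 0.05) and 5 lower (16.3%), namely Ndufa4l2, Uqcrc2, Uqcrq, Cox6a2 and Cox6b2. In that comparison 22 members were higher by the adjusted p alone, beside 5172 of the 15153 genes tested. MC010 against MC659 had 1 higher (19.1%), Ndufa11, and 6 lower (17.7%), namely Ndufa4l2, Uqcrc2, Cox6a2, Cox6b2, Cox7a1 and Atp5s. MC011 against MC654 had 2 higher (17.2%), Ndufb2 and Cox7a1, and 1 lower (12.4%), Cox6a2. MC011 against MC659 had 1 higher (16.6%), Ndufb2, and 4 lower (13.7%), Ndufa4l2, Uqcrc2, Cox6a2 and Cox7a2l. These comparisons share libraries.

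In further members MC010 lay apart from the other 3 lines, and 3 are named after their values were seen. Ndufa9, a complex I subunit near the ubiquinone site, had 64.9 and 66.8 CPM in MC010 and between 86.1 and 89.5 CPM in the other 6 libraries, with a log2 difference from MC011 of -0.40 (SE 0.05, edgeR adjusted p = 2.48e-06). Ndufs4, needed late in the assembly of complex I, went the other way, at 54.5 and 54.8 CPM in MC010 and between 37.9 and 42.0 CPM elsewhere, a difference from MC011 of 0.44 (SE 0.06, edgeR adjusted p = 1.11e-05). Ndufa11, a membrane-arm subunit, had 48.8 and 42.1 CPM in MC010 and between 28.1 and 33.9 CPM elsewhere. The 3 sizes were under the call threshold between MC010 and MC011, where Ndufa11 differed by 0.48 (SE 0.07, edgeR adjusted p = 3.72e-05).

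Among the isoform pairs, the widely used gene was abundant and its tissue-restricted partner low in every line. Cox6a2, the heart and skeletal muscle form of Cox6a1, had 5 and 5 raw counts in MC010, 15 and 4 in MC011, 90 and 62 in MC654, and 183 and 188 in MC659. The labels did not overlap, the log2 fold change was -4.20 (SE 0.56, edgeR adjusted p = 0.000839), and in MC659 the level was still only 2.07 and 2.09 CPM beside 93.7 and 94.7 CPM of Cox6a1. The muscle marker list, which does not hold Cox6a2, summed to between 1.98 and 2.24 CPM in the libraries labelled WT and to between 0.944 and 6.45 in those labelled IRF8 KO, and its part in this difference was not tested.

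Ndufa4l2, a partner of Ndufa4 known to rise in low oxygen, had 0 and 0 raw counts in MC010, 33 and 26 in MC011, 48 and 27 in MC654, and 130 and 155 in MC659. With 3 counts per library taken as the floor, its level in MC010 was at least 10.0-fold lower than in MC011, at least 13.3-fold lower than in MC654 and at least 47.7-fold lower than in MC659. By label it did not pass the test (edgeR adjusted p = 0.126). Shmt2, an abundant gene, overlaps an exon of Ndufa4l2 on the other strand. Cox6b2, the testis form of Cox6b1, had 3 and 0 counts in MC010 and at most 23 in any library. Cox7a1, the muscle form of Cox7a2, had 5 and 1 counts in MC010, 36 and 16 in MC011, 9 and 7 in MC654, and 18 and 12 in MC659, and the floor and the counts of these genes cover counting error only.

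**Figure D4:**
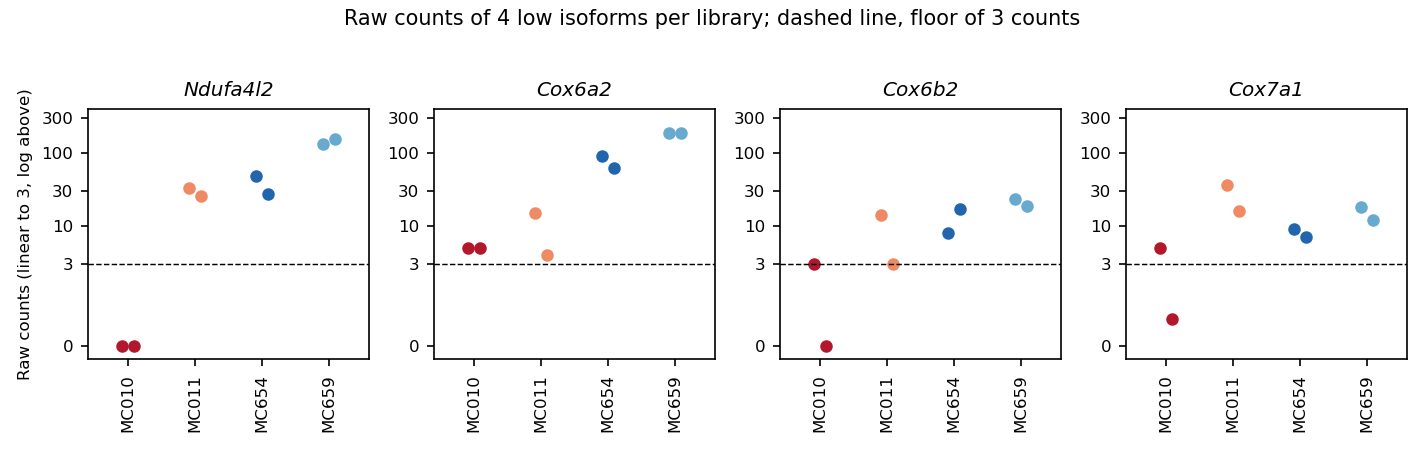
Raw counts (vertical axis linear to 3 and logarithmic above) of 4 low isoforms in each library (points) of the 4 lines (horizontal axes), with a dashed line at the floor of 3 counts. Ndufa4l2 has 0 counts in both libraries of MC010, and Cox6a2 has 62 to 188 counts in the libraries labelled WT and 4 to 15 in those labelled IRF8 KO.

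The lines labelled WT differed least. MC654 and MC659 differed in 2 members at the call threshold, 0 higher in MC654 by edgeR or DESeq2 (1.24% of all genes; 5 members were higher at an unadjusted p under 0.05) and 2 lower (3.71%), Ndufa4l2 at -1.84 (SE 0.36, edgeR adjusted p = 0.00302) and Cox6a2 at -1.20 (SE 0.33, edgeR adjusted p = 0.0219). By the adjusted p alone Ndufb9 at -0.31 and Atp5g1 at 0.25 were added. At an unadjusted p under 0.05, 11 members differed in either direction, beside 4001 of the 15153 genes tested. The median size of the log2 difference over the members was 0.05, beside 0.13 over all genes tested, and it was 0.17 between MC010 and MC011, beside 0.42. Over the members' log2 values, Pearson's r was 0.998 to 0.999 between the libraries of a line, 0.995 to 0.997 between the lines labelled WT, 0.988 to 0.990 between the lines labelled IRF8 KO and 0.976 to 0.990 between labels, a description over 77 genes that are not independent.

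**Figure D5:**
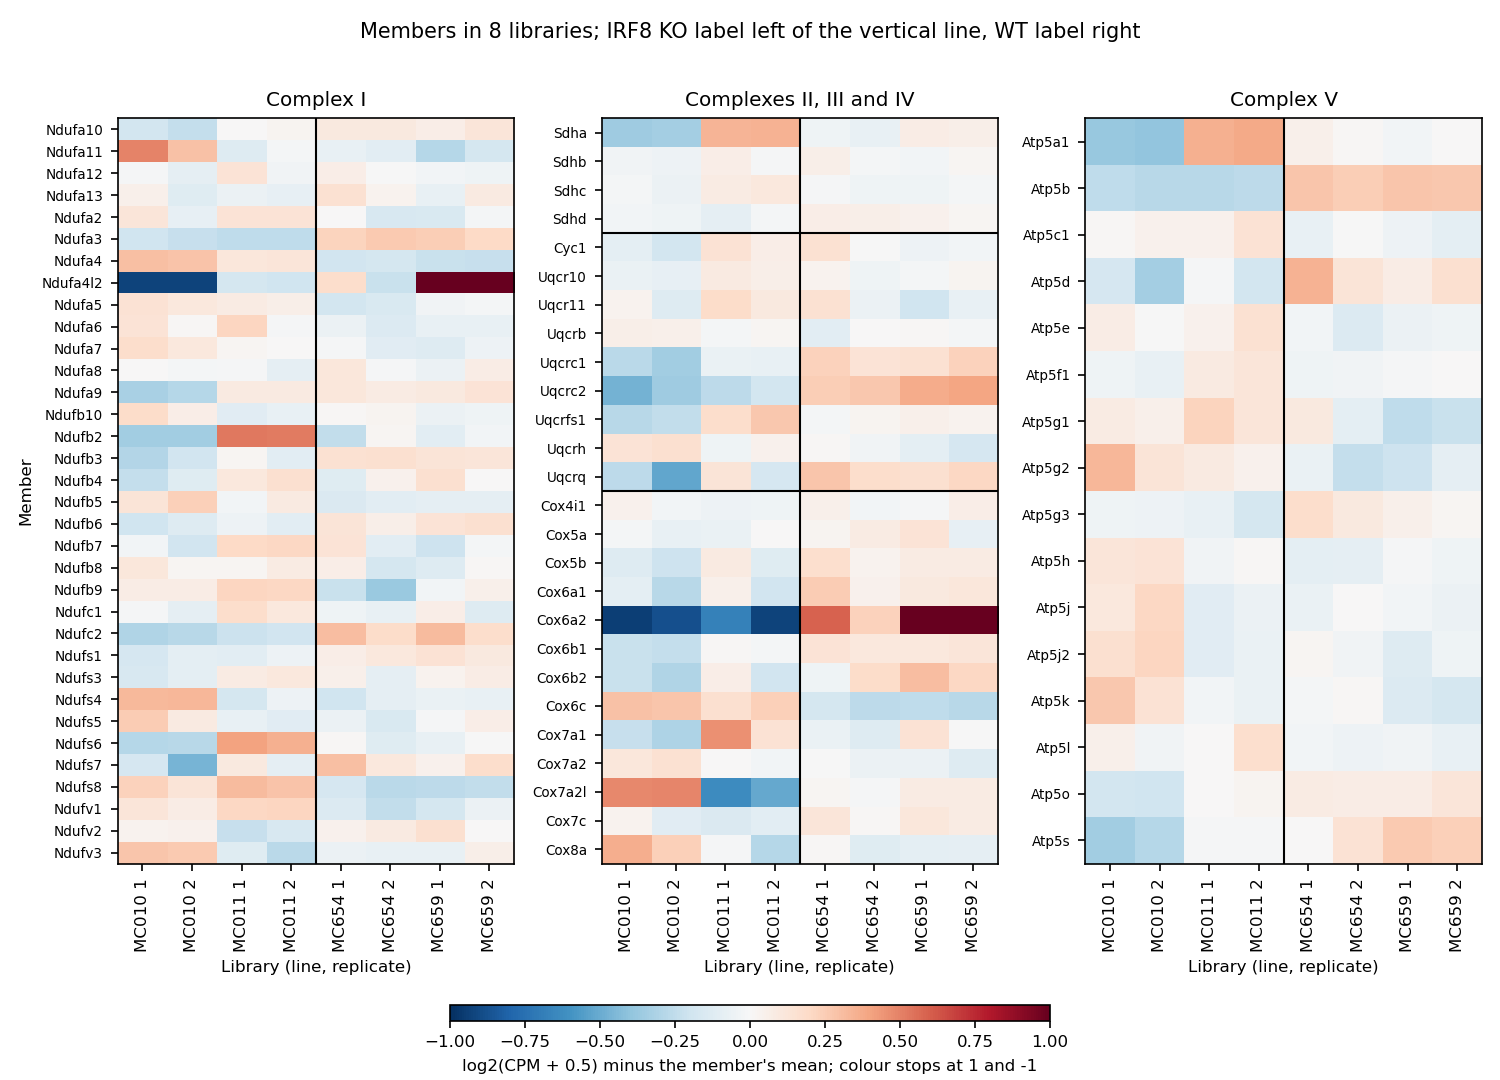
log2(CPM + 0.5) of the members shown (rows, by complex) in each library (columns), minus the member's mean over the 8 libraries, with colour stopping at 1 and -1. Libraries of a line are alike, most members are pale, and Sdha, Atp5a1, Cox7a2l, Ndufb2 and Ndufs6 change colour between MC010 and MC011.

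Genes that serve the same complexes were counted for comparison. Of 48 assembly factors, 4 were called higher by label, beside 13.7% of all genes, and 2 lower, beside 8.72%. By the adjusted p alone 8 were higher, beside 20.8%, and 12 lower, beside 16.7%. Those called higher were Sdhaf4 at 0.62, Coa7 at 0.80, Pet100 at 0.72 and Lrpprc, which stabilizes mitochondrial mRNA, at 0.85, and those called lower were Ttc19 at -0.64 and Cox17, a copper chaperone for complex IV, at -0.78. Lrpprc had 162 and 168 CPM in MC010, 127 and 133 in MC011, 83.0 and 87.7 in MC654, and 76.4 and 80.0 in MC659, with an edgeR adjusted p of 0.000528. For complex I, none of 15 assembly factors was higher and 4 passed the adjusted p lower, of which Tmem126b was the largest at -0.58 (SE 0.08, edgeR adjusted p = 0.00114). Between MC010 and MC011, 1 of the 48 was called, Uqcc3 at -0.90, where 16% of all genes were called lower.

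Of 14 genes of electron carriers and ubiquinone synthesis, 2 passed the adjusted p higher, beside 20.8% of all genes, and 5 lower, beside 16.7%. Coq8a at 0.82 and Coq3 at -0.75 were called, where 13.7% of all genes were called higher and 8.72% lower. Cycs, the gene of cytochrome c, was at 0.06 by label. Of 12 TCA cycle enzymes, 2 passed higher and 4 lower, beside the same shares of all genes. Suclg2, the GTP-forming subunit of succinyl-CoA ligase, was called at 1.03 (SE 0.06, edgeR adjusted p = 1.03e-05). It ranged from 141 to 161 CPM in the libraries labelled IRF8 KO and from 72.3 to 76.9 in those labelled WT. Citrate synthase, Cs, was lower by 0.28 (SE 0.04, edgeR adjusted p = 0.00182). Between MC010 and MC011, Ogdh was called higher and Dlst and Dld lower, where 15.7% of all genes were called higher and 16% lower. Components of one enzyme, the oxoglutarate dehydrogenase complex, were thus not ordered alike.

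Of 11 regulators of mitochondrial biogenesis tested, none was called by label. Gabpa at -0.24, Gabpb1 at -0.26 and Tfam at -0.17 passed the adjusted p, where 16.7% of all genes passed it lower. Nrf1 had between 56.2 and 63.5 CPM in all libraries. Between MC010 and MC011, 4 were called, where 31.6% of all genes tested were called in either direction. Ppargc1b, a coactivator of respiratory genes, had 0.411 and 0.218 CPM in MC010, 4.14 and 3.28 in MC011, 7.49 and 6.84 in MC654, and 6.74 and 7.49 in MC659, a log2 difference of -3.48 (SE 0.23, edgeR adjusted p = 2.44e-09). Yy1 was lower in MC010 than in MC011 by 0.89 and Pprc1 by 0.61, and Esrra was higher by 1.00.

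Messenger RNAs of mitochondrial DNA took few of the deposited counts, 0.0150% to 0.0233% over 11 rows. The reason for this was not tested. Of 10 tested, mt-Nd2 was called higher by label at 0.82 (SE 0.14, edgeR adjusted p = 0.00286) and mt-Co1 lower at -0.61 (SE 0.15, edgeR adjusted p = 0.0143). Over all genes, 13.7% were called higher and 8.72% lower. Of the 50-base stretches of mt-Co1, 51.1% occur in transcripts of other genes, and for mt-Co2, mt-Co3 and mt-Atp6 the share was 99.5% to 100%. For mt-Cytb and mt-Nd1 it was 0%, with 28.4 to 53.1 and 16.1 to 31.1 CPM. The genes differ widely in this share, and no ratio of nuclear to mitochondrial subunits is given.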

How the data were processed

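RNA of 4 tumor cell lines was sequenced from stranded mRNA libraries, 2 per line. The authors used STAR for alignment, HTSeq for gene counts and DESeq2 to compare the labels. The submitters' processing notes name STAR 2.7.3a, HTSeq 0.11.2, mm10 and GRCm38.p6. The study's methods give other versions, and the strand option of HTSeq is not given in the sources used here. The deposited raw counts per gene and library were used. The table's scaled values and its own comparison (fold changes and p-values) were not. The lowest sum of a row over the 8 libraries was 20 counts.

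Tests were run in edgeR 4.0.16 (R 4.3.3) with filterByExpr by label, TMM and the robust quasi-likelihood test, adjusted by the Benjamini-Hochberg method over 15153 genes. One fit had 2 labels and another 4 lines. CPM used TMM library sizes. With 74063616 to 116206078 counts per library, 3 counts correspond to between 0.0258 and 0.0405 CPM before TMM scaling. Fits were tested on simulated data. Motifs were searched in RefSeq promoters. Exon lengths, overlaps and shared 50-base stretches came from the GENCODE M21 annotation, whose gene coordinates matched those of the table for 94.6% of IDs.

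The members and all lists were chosen with earlier results of these data known. Values were to be given for called members, isoform pairs, core subunits, the most and least variable member of each complex, and called genes of other lists. Further members past the adjusted p were named after their values were seen. Alternatives were DESeq2 1.42.0, no filter, upper-quartile scaling, line sums, limma 3.58.1 (voom with the line as random block), a block for the library number, each library or line left out, and no fold threshold. Values of a single member are left out of the text and the heat map, although the counts and sums include it.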

Additional observations from a re-analysis of the deposited data

Results flagged for a closer look

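In 5 members every library labelled WT lay between those of MC010 and those of MC011, and these lines, both labelled IRF8 KO, also differed past the call threshold. Both conditions held for 8.8% of all genes tested, and 5 of 77 members is not above that share. The log2 difference of MC010 from MC011 was -0.95 for Ndufb2, -0.67 for Ndufs6, -0.69 for Sdha, 1.06 for Cox7a2l and -0.76 for Atp5a1, each tested with edgeR between the lines. Ndufb2, Ndufs6 and Atp5a1 have an exon that overlaps a gene on the other strand, and Sdha and Cox7a2l have none. Krt8 and Krt18 RNA also stood apart in MC010, where the epithelial markers Epcam, Cdh1 and Krt19 were lower than in MC011. The part of these markers in the members' differences was not tested. Among 62 groups of 4 libraries from 31 members, no library lay apart from the other 3 of its label by Dixon's test, which looks for 1 library apart and cannot show a whole line, 2 libraries against 2, standing apart.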

How the results depend on the processing

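Under 18 alternatives, 475 of 558 log2 fold changes by label of 31 followed members kept their side of the adjusted p of 0.05. A value short of the adjusted p in both fits counts as kept, also where its sign changed. Atp5a1, for example, was at 0.03 in the main fit and at -0.02 with voom. Of the rest, 61 lost the adjusted p, 17 gained it in the same direction and 5 gained it in the other direction. These 5 came with a line left out: without MC011, Atp5a1 was at -0.41, Cox7a1 at -2.05 and Sdha at -0.36, and without MC010, Cox7a2l was at -0.63 and Uqcrfs1 at 0.18. Of the 61 losses, 11 came with line sums, which leave 2 samples per label. These 11 were all the followed members past the adjusted p in the main fit, and the 61 losses fell on them alone.

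Members called higher by label numbered 1 (Ndufb2) without MC010, 6 with no fold threshold and 0 with any single library left out. Members called lower numbered 0 with line sums, 6 without MC011, 1 without MC659, 15 with no fold threshold, 1 at 10 CPM or more, and 2 to 3 with single libraries left out. Over all genes, 2668 of 16072 were called lower without MC011 and 699 of 16295 without MC659, beside 1321 of 15153 in the main fit. Without MC010, 2679 of 16095 genes were called higher, beside 2083 of 15153. Members called between MC010 and MC011 numbered 43 with no fold threshold and 7 to 8 with single libraries left out, and the 7 members kept their calls in 84 of 84 values. Between MC654 and MC659 there were 4 with no fold threshold and 1 to 2 with single libraries left out, Cox6a2 being lost without MC654 replicate 2 or either library of MC659. The cause of the other changes was not tested.

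Deviations of same-numbered libraries, taken over all genes tested, correlated at -0.12 to 0.194 over 6 pairs of lines. Such a correlation cannot show whether some genes share an effect of the library number. With the replicate block, 0 members were called higher and 2 lower by label, 8 were called between MC010 and MC011, and 2 between MC654 and MC659, and over all genes 1917 were higher and 1189 lower by label. Of the 31 followed members, 3 lost the adjusted p with it, among them Atp5g3 (0.0549) and Cox6b1 (0.0528). Each line is 1 tumor, both libraries of a line may be technical repeats, and counts near the floor of 3 limit Cox6b2, Cox7a1 and Ndufa4l2.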
